A study of Mus musculus with 18 samples.

Results

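The 10 genes described here encode most of the gate through which pyruvate enters the mitochondrion and becomes acetyl-CoA: the kinase genes Pdk1, Pdk2 and Pdk4, the phosphatase genes Pdp1 and Pdp2, the pyruvate dehydrogenase subunit genes Pdha1, Pdhb and Dlat, and the pyruvate carrier genes Mpc1 and Mpc2. They were chosen by symbol from a table of 28030 mouse genes, and all 10 were among the 12477 genes abundant enough to be tested. Their levels were followed in hepatocytes from the 2 ends of the liver lobule through feeding and fasting.

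The hepatocytes came from wild-type C57BL/6J male mice aged 12 weeks that ate normal chow (lab diet #5053). For 3 days before the experiment food was taken away at 5 PM and returned at 9:00, so that the mice fasted for 16 h each night and ate for 8 h each day. On the last day all mice received food together with water holding 20% sucrose. The fed group was killed at 13:00 after 4 h of this feeding (fasting time 0 h), the 8 h group was killed at 21:00 after food and sucrose were withdrawn at 13:00, and the 24 h group was killed at 13:00 on the following day. Since the 8 h mice were killed in the evening and all others at midday, fasting time and time of day cannot be told apart for that group. The fed mice were killed while on both food and sucrose. In comparisons with them the lack of food and the lack of sucrose cannot be told apart. Cells of the pericentral zone, around the central vein, and of the periportal zone, where blood enters the lobule, were isolated with digitonin, a detergent that permeabilises cells. Each of the 6 groups of zone and state held 3 libraries. Nothing states whether libraries are separate mice, so the p-values measure the spread between libraries, which may be technical. The mRNA levels say nothing of protein, phosphorylation or flux.

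Pyruvate crosses the inner mitochondrial membrane through a carrier made of MPC1 and MPC2. The pyruvate dehydrogenase complex then converts it to acetyl-CoA: PDHA1 and PDHB form its decarboxylating E1 component, and DLAT is the E2 component, which passes the acetyl group to coenzyme A. The kinases (PDK) phosphorylate E1 and switch the complex off, and the phosphatases (PDP) switch it on again. In the fasted liver, pyruvate spared from oxidation can be used for glucose, and Pdk4 is known as a gene that fasting induces through PPARA, FOXO1 and glucocorticoid signalling.

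The libraries held 18400000 to 26400000 estimated counts. The 8 pericentral markers fixed for the check (Glul and Cyp2e1 among them) summed to 10400 to 19400 CPM (counts scaled to a library total of 1000000 after TMM normalisation) in pericentral libraries and to 481 to 2160 CPM in periportal ones. The 8 periportal markers summed to 7690 to 16800 CPM in pericentral and 14500 to 26900 CPM in periportal libraries, with overlapping ranges. Pericentral 24 h library 2 stood apart in Glul, at 111 CPM against 928 and 707 CPM in the other two libraries of its group. The 5 general hepatocyte markers found summed to 56800 to 97900 CPM in pericentral and 112000 to 184000 CPM in periportal libraries. Markers of other cells were low. The 6 endothelial markers summed to 3.39 to 10.7 CPM in pericentral and 3.96 to 30.7 CPM in periportal libraries, the 6 Kupffer cell and leukocyte markers to 0.651 to 4.15 and 0.525 to 16.5 CPM, and the 6 stellate cell and fibroblast markers to 0.696 to 4.94 and 0.969 to 14.7 CPM. The 5 cholangiocyte markers summed to 19.3 to 37.6 CPM in pericentral and 32.8 to 56.7 CPM in periportal libraries, and the defining marker Epcam was at 0 in every library. The 3 red blood cell markers summed to 36.6 to 65.9 and 30.8 to 75.1 CPM. In such bulk samples fewer cells of a type and less RNA per cell cannot be told apart.

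After 24 h of fasting, 7 of the 10 genes differed from the fed state when both zones were averaged, and a share of 34.5% of all genes tested was called in that comparison. Pdk4, Pdk2, Pdp2, Mpc1 and Mpc2 were higher than in the fed state, and Pdhb and Dlat were lower. This average was taken after the results for each zone had been seen, and it uses the same libraries. Between the zones, Dlat and Mpc1 were higher in pericentral cells. No gene of the 10 was called in the tests of a different change in the 2 zones, which called at most 0.016% of all genes tested.

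To show the sequence next to the genes that moved most on fasting, the 250 bases before the RefSeq start (GRCm38.p6) are printed for 3 genes that rose and 1 that fell. Pdk4 lies at chr6:5496279-5496528 on the minus strand, Pdk2 at chr11:95041372-95041621 on the minus strand (the one of its annotated starts nearest the 5′ end of the gene), Pdp2 at chr8:104591222-104591471 on the plus strand, and Pdhb at chr14:8172993-8173242 on the minus strand. Each is written 5′ to 3′ on the gene's strand, and capitals mark CCAAT (or its reverse ATTGG) and CACGTG.
Pdk4: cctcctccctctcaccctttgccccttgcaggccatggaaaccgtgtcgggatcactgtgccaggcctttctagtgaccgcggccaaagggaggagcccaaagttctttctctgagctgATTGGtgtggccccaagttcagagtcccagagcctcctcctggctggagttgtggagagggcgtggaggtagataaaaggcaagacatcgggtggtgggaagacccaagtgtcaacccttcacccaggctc
Pdk2: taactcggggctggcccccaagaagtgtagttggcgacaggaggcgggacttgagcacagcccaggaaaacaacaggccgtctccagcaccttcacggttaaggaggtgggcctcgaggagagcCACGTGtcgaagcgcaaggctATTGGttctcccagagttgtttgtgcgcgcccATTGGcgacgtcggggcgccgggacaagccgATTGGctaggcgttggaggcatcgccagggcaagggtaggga
Pdp2: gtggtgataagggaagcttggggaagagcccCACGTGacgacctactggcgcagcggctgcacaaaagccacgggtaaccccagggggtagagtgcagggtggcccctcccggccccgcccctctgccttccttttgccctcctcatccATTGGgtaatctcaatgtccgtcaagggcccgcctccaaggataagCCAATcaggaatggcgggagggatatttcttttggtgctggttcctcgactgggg
Pdhb: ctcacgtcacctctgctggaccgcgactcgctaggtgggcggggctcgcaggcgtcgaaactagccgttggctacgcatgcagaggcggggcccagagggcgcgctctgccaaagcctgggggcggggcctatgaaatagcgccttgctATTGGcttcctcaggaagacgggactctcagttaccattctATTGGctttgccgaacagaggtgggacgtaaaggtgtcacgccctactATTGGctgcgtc

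Windows from 250 bases before to 50 after a start were matched for 9 of the 10 genes, with Pdp1 not matched. Both strands were searched for AGGTCA, the core letters of many nuclear receptor sites, the direct repeat AGGTCANAGGTCA that PPARA with RXR can bind, the forkhead site TGTTTAC and the cyclic AMP response element TGACGTCA. None of these letters occurred in the windows of Pdk4, Pdk2, Pdp2, Pdhb, Dlat or Mpc2, and 1 AGGTCA occurred at position -244 of the second Mpc1 start. Of 32851 mouse promoter windows of the same length, 16.3% held AGGTCA, 0.0396% the direct repeat, 3.65% the forkhead site and 1.79% the cyclic AMP response element. CCAAT and CACGTG were added after the sequences had been read. CCAAT, known as the binding site of NF-Y, occurred at position -131 in Pdk4, at -105, -73 and -42 in Pdk2, at -101 and -55 in Pdp2 and at -101, -60 and -12 in Pdhb (positions are counted back from the start, at the first base of the match as printed). It is present at least once in 37.4% of all windows and at least 3 times in 3.37%. CACGTG, an E-box, occurred at -126 in Pdk2 and -219 in Pdp2, and is present in 7.15% of all windows. These matches are descriptions of the letters. Among the 4 genes printed, CCAAT was found in Pdhb, which fell, and in the 3 that rose, and CACGTG in neither Pdhb nor Pdk4. Dlat, which also fell, had 0 matches to CCAAT, as had Pdk1 and Pdha1. Mpc1 had 2 at its first start and 0 at its second, and Mpc2 had 1.

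Per kilobase of the principal annotated transcript, the 10 genes spanned a wide range in fed pericentral cells. The carrier genes and Pdhb were the most abundant, at 172 ± 27.6 CPM per kb for Mpc1, 151 ± 8.89 for Pdhb and 130 ± 9.22 for Mpc2 (SD, n = 3). Pdha1, which encodes the partner of PDHB in E1, was at 52.0 ± 6.56 CPM per kb, and the E2 gene Dlat at 21.9 ± 4.09. Pdk1 and Pdk2 were both at 29.1 CPM per kb (SD 4.07 and 0.759). Pdp2 was at 6.63 ± 1.06, Pdk4 at 2.56 ± 0.588 and Pdp1 at 0.17 ± 0.103 CPM per kb. These lengths depend on the chosen transcript. Part of the sequence of some genes is shared with other genes, which bears on how reads were shared out: 30.79% of the 31-base words of Mpc1, 17.91% of those of Pdhb and 15.82% of those of Pdha1 occur elsewhere, against at most 1.84% for the other members. These are shares of sequence and not errors on the levels. Map3k15, which shares most with Pdha1, had 17 to 82 counts per library, against 2732 or more for Pdha1. Mpc1-ps had 0 to 2, against 2585 or more for Mpc1. Gm6123 and 4930506C21Rik, which share most with Pdhb and Mpc1, were not among the 28030 genes. The effect of the sharing on the levels of these 3 genes was not tested.

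**Figure D1:**
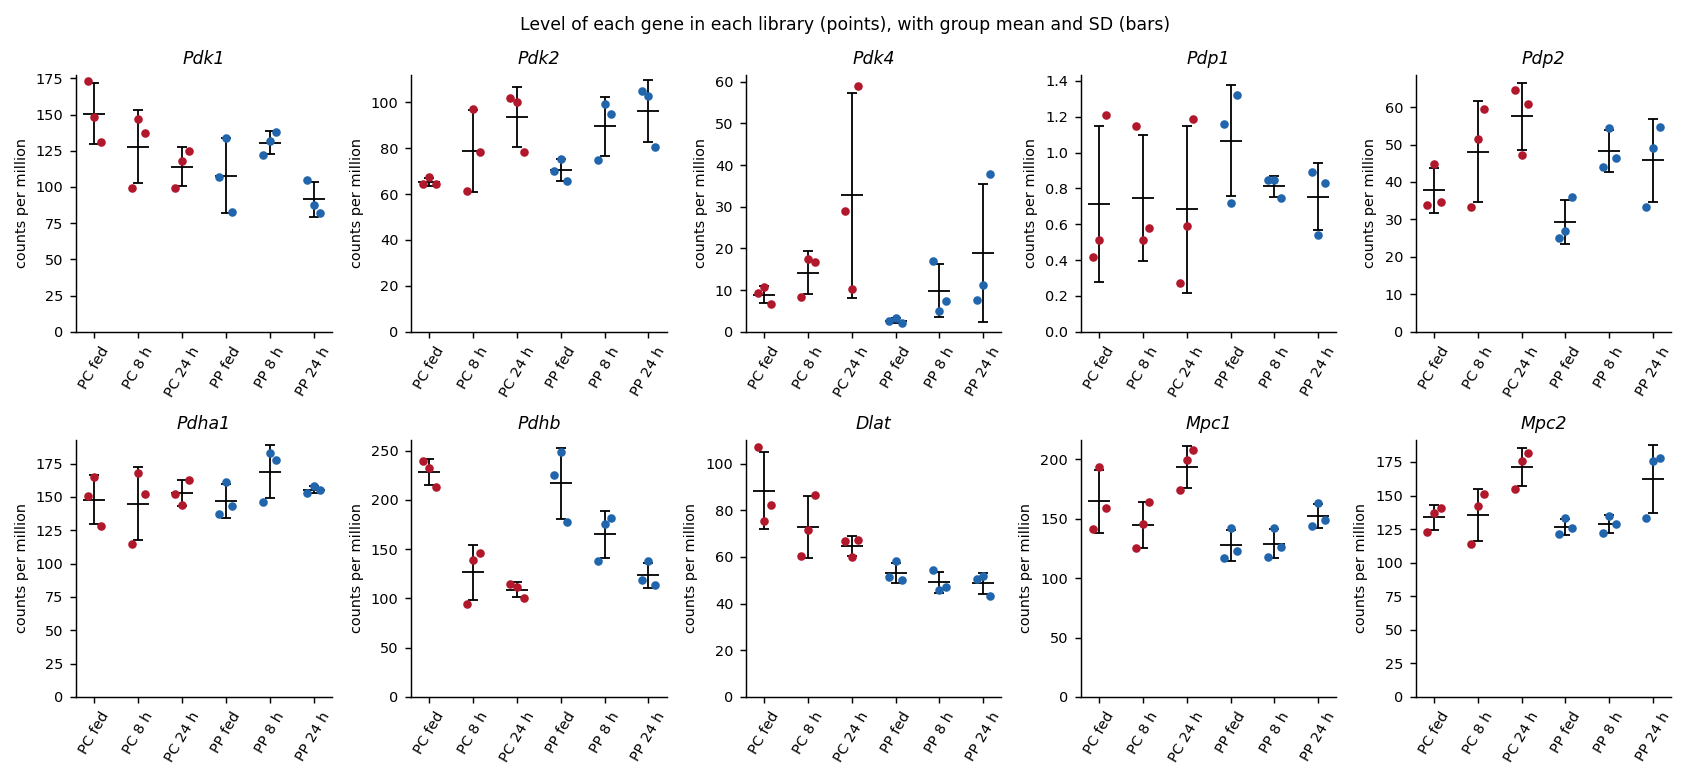
Level of each of the 10 genes in CPM (y axis, from 0) in the 18 libraries, by group (x axis: pericentral, PC, in red, and periportal, PP, in blue, fed and after 8 h and 24 h of fasting). Points are libraries and bars give the group mean and SD. Pdk4 spans 2.17 to 58.9 CPM, Pdhb falls from 213 CPM or more in fed pericentral libraries to 115 CPM or less at 24 h, and Dlat is lower in periportal than in pericentral libraries.

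Pdk4 encodes the kinase isoform best known for its response to fasting, and it varied most among the 10 genes, with a ratio of 12.3 between its highest and lowest group means. In fed pericentral libraries it was at 9.23, 10.8 and 6.74 CPM, at 8 h at 8.27, 17.5 and 16.8 CPM, and at 24 h at 28.9, 10.3 and 58.9 CPM. In periportal cells the fed libraries were at 2.48, 3.36 and 2.17 CPM, the 8 h libraries at 17, 4.93 and 7.45 CPM, and the 24 h libraries at 7.71, 11.2 and 37.8 CPM. All fasted periportal libraries lay above all fed ones, whereas the pericentral 24 h libraries overlapped the fed ones through library 2. That library was low in Glul, and its 8 pericentral markers summed to 11400 CPM, against 16500 and 19400 CPM in the other pericentral 24 h libraries. Fed pericentral libraries were at 14000 to 16100 CPM and 8 h ones at 10400 to 12300 CPM. The part of this in the Pdk4 values was not tested. The order of the group means rose from fed periportal (2.67) through fed pericentral (8.92), periportal 8 h (9.81), pericentral 8 h (14.2) and periportal 24 h (18.9) to pericentral 24 h (32.7 CPM), and from fed pericentral upwards each group overlapped the next.

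On the log2 scale, Pdk4 rose in periportal cells by 2.83 (SE 0.74, adjusted p = 0.0169, edgeR quasi-likelihood test) from fed to 24 h. In pericentral cells the difference was 1.87 (SE 0.67, adjusted p = 0.0645), and averaged over the zones it was 2.35 (SE 0.50, adjusted p = 0.00259), about 5.09-fold. The average was called in each of the 26 alternatives (log2 1.85 to 2.56). The call in periportal cells rested on single libraries: it was lost without periportal 24 h library 3 (1.84, adjusted p = 0.0991), without fed library 1 (2.78, 0.0649) and without fed library 3 (2.69, 0.0617). That 24 h library also held the highest summed Kupffer cell and leukocyte markers of all libraries, at 16.5 CPM, and the part of this in the result was not tested. In pericentral cells the difference was called without pericentral 24 h library 2 (2.29, adjusted p = 0.0273) and without periportal 24 h library 3 (1.87, 0.0344), a library outside that comparison. DESeq2 called the pericentral difference (adjusted p = 0.0262), while limma-voom (0.0612) and a fit of the compared groups alone (0.0574) did not call the periportal one.

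At 8 h the Pdk4 differences did not pass the test, at 1.89 (SE 0.74, adjusted p = 0.113) in periportal and 0.67 (SE 0.67, adjusted p = 0.59) in pericentral cells. DESeq2 called the former (adjusted p = 0.037). Averaged over the zones the 8 h difference was 1.28 (SE 0.50, adjusted p = 0.0774). This average was called in 4 of 26 alternatives, among them DESeq2 (0.0312) and a fit of the compared groups alone (0.0121). From 8 h to 24 h the periportal difference was 0.94 (SE 0.67, adjusted p = 0.45) and turned to -0.05 without periportal 24 h library 3. Fed periportal libraries all lay below fed pericentral ones, with a log2 difference of -1.74 (SE 0.74, adjusted p = 0.193; 0.00124 with these groups fitted alone), and the mean over the 3 states was -1.02 (SE 0.40, adjusted p = 0.0921). The mean passed by DESeq2 (adjusted p = 0.0416). It also passed without periportal 8 h library 1 (-1.24, 0.0459), pericentral 24 h library 2 (-1.16, 0.0399) or periportal 24 h library 3 (-1.35, 0.0193). In the fed state the summed endothelial, Kupffer and stellate cell markers were at 11.6 to 13.4, 3.92 to 6.54 and 4.13 to 6.25 CPM in periportal cells. In pericentral cells they were lower, at 3.39 to 5.79, 1.1 to 1.83 and 1.07 to 2.26 CPM. The part of this in the Pdk4 difference was not tested. The rise of Pdk4 from fed to 24 h differed between the zones by 0.96 (SE 0.98, adjusted p = 0.869), so a difference of either sign fits the error.

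Pdk2, a widely expressed kinase isoform, rose in both zones at 24 h. Fed pericentral libraries were at 64.4, 67.4 and 64.5 CPM and 24 h libraries at 102, 100 and 78.4 CPM. In periportal cells the fed values of 70.3, 75.5 and 65.8 CPM were followed by 105, 103 and 80.7 CPM at 24 h. The fed and 24 h libraries did not overlap in either zone, and the 8 h libraries overlapped both. Pdk2 rose by 0.52 in pericentral (SE 0.15, adjusted p = 0.0241) and by 0.45 in periportal cells (SE 0.15, adjusted p = 0.0493), and by 0.48 over both (SE 0.11, adjusted p = 0.00246), a call kept in all 26 alternatives (log2 0.44 to 0.54). The pericentral call was lost without fed library 1, 2 or 3 or 24 h library 1 or 2 of that zone (adjusted p 0.0537 to 0.0875). The periportal call, close to the threshold, was lost without any of 13 of the 18 libraries, with log2 values of 0.38 to 0.50, and without the filter on low counts (adjusted p = 0.0649) or by limma-voom (0.0587). It was kept without pericentral 8 h library 1 or 2 or 24 h library 3, or periportal 8 h library 1 or 24 h library 3. At 8 h the average over both zones was 0.31 (SE 0.11, adjusted p = 0.0454), a call kept in 6 of the 18 fits with 1 library left out. The zones differed by 0.11 on average (SE 0.09, adjusted p = 0.434).

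Pdk1, the isoform known as a target of hypoxia signalling, passed the test in none of the 13 planned and 2 added comparisons. Its values were 173, 148 and 131 CPM in fed, 99.1, 147 and 137 CPM in 8 h and 99.2, 118 and 125 CPM in 24 h pericentral libraries. In periportal cells they were 107, 134 and 82.4 CPM when fed, 122, 132 and 138 CPM at 8 h, then 105, 87.8 and 81.7 CPM at 24 h. The fed and 24 h pericentral libraries did not overlap, and the log2 difference there was -0.40 (SE 0.17, adjusted p = 0.11). Over both zones it was -0.32 (SE 0.12, adjusted p = 0.0532), which passed in 7 of 26 alternatives, among them those without fed pericentral library 3, fed periportal library 3, pericentral 8 h library 1 or 2, or periportal 24 h library 1 (-0.41 to -0.33). From 8 h to 24 h the periportal difference was -0.51 (SE 0.17, adjusted p = 0.0836), also without overlap, and it passed without fed periportal library 3 (-0.52, 0.0491). In the fed state the periportal value was lower by 0.48 (log2 -0.48, SE 0.17, adjusted p = 0.107), which passed without fed periportal library 2 (-0.68, 0.0299).

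The make-up of the kinase messages differed between fed and 24 h libraries. Per kilobase, Pdk4 made up 4.1%, 5.03% and 3.46% of the sum of Pdk1, Pdk2 and Pdk4 in fed pericentral libraries and 11.4%, 4.21% and 22.3% at 24 h. In periportal cells it made up 1.35%, 1.6% and 1.36% when fed and 3.2%, 4.87% and 17.3% at 24 h. Pdk2 went from 48.1% ± 3.55 to 57.2% ± 9.77 in pericentral and from 59.7% ± 4.16 to 64.8% ± 6.46 in periportal cells (SD, n = 3), while Pdk1 went from 47.7% ± 3.42 to 30.1% ± 3.37 and from 38.9% ± 4.05 to 26.7% ± 2.22. Pdk2 was thus the most abundant of the 3 kinase messages per kilobase in every 24 h library, and Pdk4 the least abundant. These shares are descriptions without a test.

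**Figure D2:**
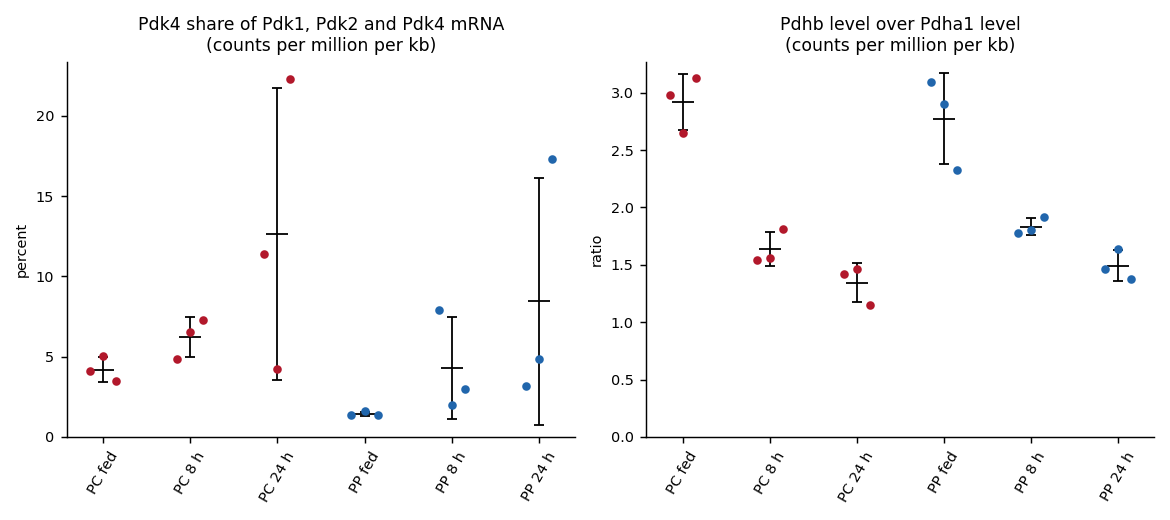
Left, the percent of the summed Pdk1, Pdk2 and Pdk4 level that is Pdk4, and right, the ratio of the Pdhb to the Pdha1 level, both from CPM per kilobase, by group (x axis) with 1 point per library and bars for mean and SD. The Pdk4 share reaches 22.3% in 1 pericentral library at 24 h, and the Pdhb to Pdha1 ratio is 2.33 or more in fed libraries and 1.92 or less in fasted ones.

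Of the phosphatases, Pdp2, the isoform prominent in liver, rose on fasting and Pdp1, better known from muscle, was barely present. Pdp2 was at 33.8, 44.7 and 34.7 CPM in fed, 33.2, 51.6 and 59.5 CPM in 8 h and 64.5, 47.3 and 60.7 CPM in 24 h pericentral libraries. Periportal values were 24.9, 27 and 36.1 CPM when fed, 43.9, 54.5 and 46.4 CPM at 8 h, then 33.3, 49.1 and 54.8 CPM at 24 h. All periportal 8 h libraries and all pericentral 24 h libraries lay above the fed ones of their zone. The periportal rise at 8 h was 0.72 (SE 0.22, adjusted p = 0.0409), kept in 9 of the 18 fits with 1 library left out, and was lost without any 1 of fed libraries 1 and 2 or the 3 libraries of 8 h in that zone, or without fed library 3, 8 h library 2 or 24 h library 3 of the pericentral zone or 24 h library 2 of the periportal zone (0.61 to 0.79, adjusted p 0.0504 to 0.158). At 24 h the differences were 0.61 in pericentral (SE 0.22, adjusted p = 0.0592) and 0.64 in periportal cells (SE 0.22, adjusted p = 0.0544), and DESeq2 called both (0.033 and 0.0245). Averaged over the zones Pdp2 rose by 0.53 (SE 0.16, adjusted p = 0.0182) after 8 h and, after 24 h, by 0.63 (SE 0.16, adjusted p = 0.00556). The latter call was kept in all 26 alternatives, and the former was lost without fed periportal library 1 (0.48, 0.0505) or pericentral 8 h library 3 (0.45, 0.0522). Pdp1 had 0.274 to 1.32 CPM in every library, from as few as 7 counts, and its SE of 0.50 to 0.52 for single comparisons was larger than most of its differences, so that moderate changes were not detectable at this depth.

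Pdk4, a kinase gene, and Pdp2, the gene of an opposing phosphatase, were both higher at 24 h in the average over the zones, though not in every library: pericentral 8 h library 1 and periportal 24 h library 1 lay below at least 1 fed library of their zone in Pdp2, and pericentral 8 h library 1 and 24 h library 2 did so in Pdk4. Across the 18 libraries the log2 levels of Pdk4 and Pdp2 correlated with r = 0.76, and with r = 0.48 once group means were removed. The points share group, library and scaling, and the values are descriptions.

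Pdhb, which encodes the beta subunit of E1, had the smallest adjusted p of the 10 genes on fasting. Fed pericentral libraries were at 239, 232 and 213 CPM, 8 h libraries at 94, 139 and 146 CPM and 24 h libraries at 115, 112 and 100 CPM. Fed periportal libraries were at 225, 248 and 177 CPM, 8 h libraries at 138, 175 and 182 CPM and 24 h libraries at 119, 138 and 114 CPM. No fasted pericentral library reached a fed one, and in periportal cells the 8 h libraries overlapped the fed ones through fed library 3.

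Pdhb fell in pericentral cells by 0.85 after 8 h (SE 0.16, adjusted p = 0.00167) and, after 24 h, by 1.06 (SE 0.16, adjusted p = 0.000202), to 0.479 of the fed level. In periportal cells it fell by 0.81 at 24 h (SE 0.16, adjusted p = 0.00188), to 0.569 of the fed level, and the 8 h difference was -0.39 (SE 0.16, adjusted p = 0.112). These 3 calls were kept in every alternative run, including each left-out library. The 8 h change differed between the zones by 0.46 (SE 0.22, adjusted p = 0.909), so an earlier fall in pericentral cells was not shown. Averaged over the zones Pdhb fell by 0.62 after 8 h (adjusted p = 0.000536) and, after 24 h, by 0.94 (adjusted p = 9.08e-06).

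Pdha1, which encodes the alpha subunit that carries the phosphorylation sites, stayed between 115 and 183 CPM in all libraries, with group means within a factor of 1.17. Its log2 difference over both zones was 0.08 after 8 h (SE 0.09, adjusted p = 0.575) and, after 24 h, 0.06 (SE 0.09, adjusted p = 0.65). The level of Pdhb relative to Pdha1 per kilobase went from 2.98, 2.65 and 3.13 in fed pericentral libraries to 1.42, 1.46 and 1.15 at 24 h, and from 3.09, 2.90 and 2.33 in fed periportal libraries to 1.46, 1.64 and 1.38. Fed libraries lay above all fasted ones in this ratio. The absolute ratio depends on transcript length and on reads shared with related sequences, so its change is more readily interpreted than its size.

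Dlat, the E2 gene, was higher in pericentral cells. Pericentral libraries were at 107, 75.6 and 82.4 CPM when fed, then 60.4, 71.4 and 86.7 CPM at 8 h, then 67, 59.9 and 67.4 CPM at 24 h. Periportal libraries were at 51.2, 58.1 and 50.1 CPM, 54.2, 45.8 and 47.3 CPM, and 50.5, 52 and 43.4 CPM. All 9 pericentral libraries lay above all 9 periportal ones. Dlat was lower in periportal cells by 0.73 on the log2 scale when fed (log2 -0.73, SE 0.14, adjusted p = 0.00287), by 0.57 at 8 h (-0.57, SE 0.14, adjusted p = 0.0184) and by 0.57 averaged over the states (-0.57, SE 0.08, adjusted p = 6.11e-05). The 24 h value was -0.41 (SE 0.14, adjusted p = 0.12). The 8 h call was lost without pericentral 8 h library 3 (-0.44, 0.0888) or periportal 8 h library 2 (-0.52, 0.0834) or 3 (-0.54, 0.0784) and with these groups fitted alone (0.068), while the fed and averaged calls were kept in every alternative.

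Dlat fell in pericentral cells by 0.45 at 24 h (SE 0.14, adjusted p = 0.0283), a call lost without fed library 1 (-0.29, 0.152) or 24 h library 2 (-0.40, 0.0977) or 3 (-0.48, 0.0569) of that zone. In the same comparison 6 of the 8 periportal markers, which include Pck1 and other genes known to respond to fasting, rose and 0 fell, with a median log2 difference of 1.29 and sums of 7690 to 10000 CPM in fed and 16500 to 16800 CPM in 24 h pericentral libraries. Of the 8 pericentral markers 0 rose and 1 fell, with a median of -0.72 and sums of 14000 to 16100 and 11400 to 19400 CPM. Of all genes tested, 21.8% were called in this comparison. The part of these marker shifts in the result was not tested. In periportal cells the 24 h difference of Dlat was -0.13 (SE 0.14, adjusted p = 0.576), and the difference between the zones was 0.32 (SE 0.20, adjusted p = 0.743). Over both zones the 24 h value was -0.29 (SE 0.10, adjusted p = 0.0307), lost without fed pericentral library 1, fed periportal library 2, pericentral 24 h library 2 or periportal 24 h library 3 (-0.26 to -0.21, adjusted p 0.0675 to 0.0854).

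The carrier genes Mpc1 and Mpc2 encode proteins that work as a pair. Mpc1 was at 141, 193 and 159 CPM in fed, 125, 145 and 164 CPM in 8 h and 174, 199 and 208 CPM in 24 h pericentral libraries. Periportal values were 117, 142 and 123 CPM, 118, 142 and 126 CPM, and 144, 163 and 149 CPM. Mpc2 was at 123, 137 and 141 CPM, 114, 142 and 151 CPM, and 155, 176 and 182 CPM in pericentral libraries, and at 121, 133 and 126 CPM, 122, 135 and 129 CPM, and 133, 176 and 178 CPM in periportal ones. For both genes the highest group mean was that of pericentral cells at 24 h, and the fed and 8 h libraries of each zone overlapped. Across the 18 libraries the 2 genes correlated with r = 0.77 on the log2 scale, and with r = 0.72 once group means were removed. Over all pairs of members the latter value ran from -0.68 (Pdp1 and Pdhb) to 0.79 (Pdk2 and Pdhb), and was also 0.72 for Pdha1 and Pdhb. The points share library and scaling, and the values are descriptions.

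Mpc2 rose at 24 h against fed by 0.36 in pericentral (SE 0.12, adjusted p = 0.0435) and by 0.36 in periportal cells (SE 0.12, adjusted p = 0.047). Both calls lay close to the threshold and were kept in 7 and 4 of the 18 fits with 1 library left out, with log2 values over all 18 fits from 0.29 to 0.41 and from 0.29 to 0.48. Both were kept without pericentral 8 h library 1 or 3, periportal 8 h library 1 or periportal 24 h library 1, and the pericentral call also without pericentral 24 h library 1 or periportal 24 h library 2 or 3. Both were lost without the filter on low counts (adjusted p = 0.0737 and 0.0761). The periportal call was also lost by limma-voom (0.0586) and with the compared groups fitted alone (0.0762). With scaling that left out the 20 most abundant genes the pericentral call was lost (0.0507). In periportal cells the fed and 24 h libraries overlapped. Averaged over the zones the rise of 0.36 (SE 0.09, adjusted p = 0.00377) was kept in all 26 alternatives (0.32 to 0.42). Mpc1 rose in pericentral cells from 8 h to 24 h by 0.42 (SE 0.13, adjusted p = 0.0456), a call kept in 5 of those 18 fits (without fed pericentral library 1 or 2, pericentral 8 h library 3, periportal 8 h library 2 or pericentral 24 h library 1) and at 0.32 (adjusted p = 0.214) without pericentral 8 h library 1. Its value against fed was 0.25 over both zones (SE 0.09, adjusted p = 0.0441), kept in 7 of the 18 fits, with 0.19 (adjusted p = 0.129) without fed pericentral library 1. Mpc1 was lower in periportal cells by 0.30 averaged over the states (log2 -0.30, SE 0.07, adjusted p = 0.0081), a call kept in every alternative. Mpc2 differed between the zones by -0.07 (SE 0.07, adjusted p = 0.517).

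**Figure D3:**
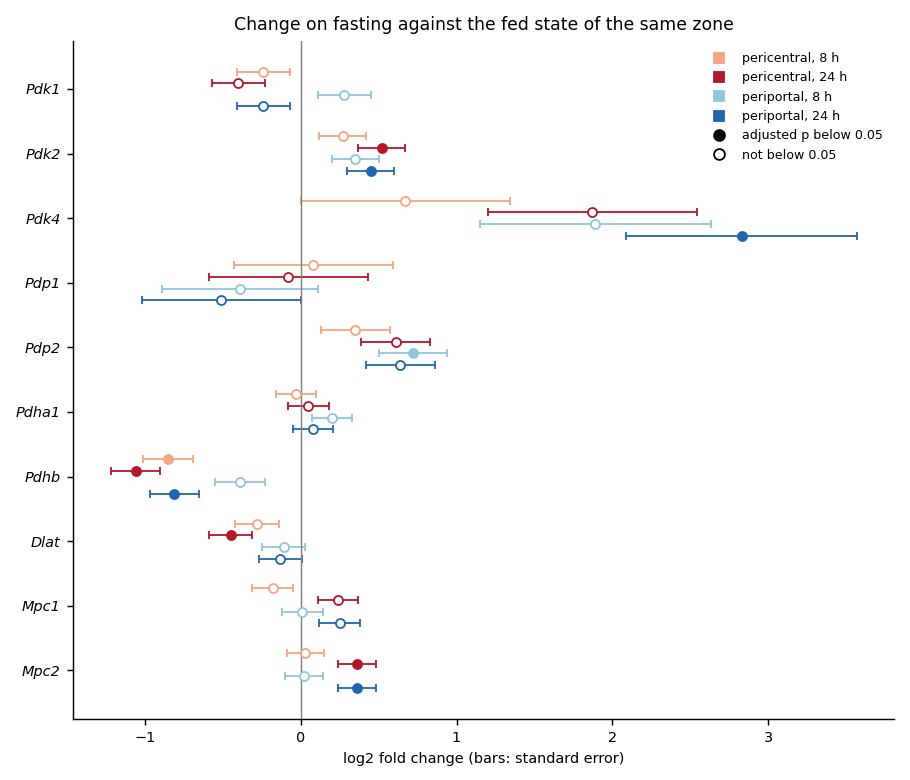
Log2 fold change (x axis) of each gene (y axis) after 8 h and 24 h of fasting against the fed state, in pericentral (red shades) and periportal (blue shades) cells. Bars are standard errors, and filled points have an adjusted p below 0.05. Pdhb lies below 0 in both zones, Pdk4 reaches 2.83 in periportal cells at 24 h, and Pdk2 and Mpc2 are filled in both zones at 24 h.

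Counted by comparison, these calls read against the share of all tested genes called in the same comparison. At 8 h against fed, 1 of the 10 genes was called in pericentral cells (Pdhb, lower), where 13.8% of all genes were called, and 1 in periportal cells (Pdp2, higher), where 14.4% were. At 24 h against fed, 4 were called in pericentral cells (Pdk2 and Mpc2 higher, Pdhb and Dlat lower; 21.8% of all genes) and 4 in periportal cells (Pdk2, Pdk4 and Mpc2 higher, Pdhb lower; 19.6%). Both counts ranged from 1 to 5 when 1 library was left out. The pericentral count was 1 without fed pericentral library 1 and 2 without fed pericentral library 2 or 3 or pericentral 24 h library 3. The periportal count was 1 without fed periportal library 1 and by limma-voom. It was 2 without any other fed library, without periportal 8 h library 2 or 3 or 24 h library 2 or 3, or without pericentral 24 h library 1 or 2. From 8 h to 24 h, Mpc1 was called in pericentral cells (9.71% of all genes) and no member in periportal cells (7.46%). In the latter comparison 3 members had an unadjusted p below 0.05, as had 2788 of all 12477 genes. DESeq2 and limma-voom called 0 members there. Pdk1 was called without fed periportal library 3 (-0.52, adjusted p = 0.0491) and Mpc2 without periportal 24 h library 1 (0.46, 0.033). Averaged over the zones, 3 were called at 8 h (Pdk2 and Pdp2 higher, Pdhb lower; 26.4% of all genes) and 7 at 24 h, where the background was 34.5% as above. The 8 h count was 1 without fed periportal library 1 or pericentral 8 h library 3. The 24 h count ranged from 5 to 8 with 1 library left out, and was 5 without fed pericentral library 1, pericentral 24 h library 2 or periportal 24 h library 3. The median log2 difference of the 10 genes at 24 h was 0.14 in pericentral and 0.16 in periportal cells, against 0.009 and -0.002 over all genes.

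Between the zones, 1 member was called when fed (Dlat; 8.01% of all genes), 1 at 8 h (Dlat; 7.14%), 0 at 24 h (4.17%) and 2 on average (Dlat and Mpc1; 20.3%). At 24 h, 2 members had an unadjusted p below 0.05, as had 2098 of all 12477 genes, and DESeq2 and limma-voom called 0 members. The tests of a different change in the 2 zones called no member, with 0%, 0.016% and 0% of all genes called for 8 h against fed, 24 h against fed and 24 h against 8 h. Of the members, 1 (Pdk1, 8 h against fed), 0 and 0 had an unadjusted p below 0.05 there, against 680, 962 and 746 of all 12477 genes. DESeq2 and limma-voom also called 0 members.

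**Figure D4:**
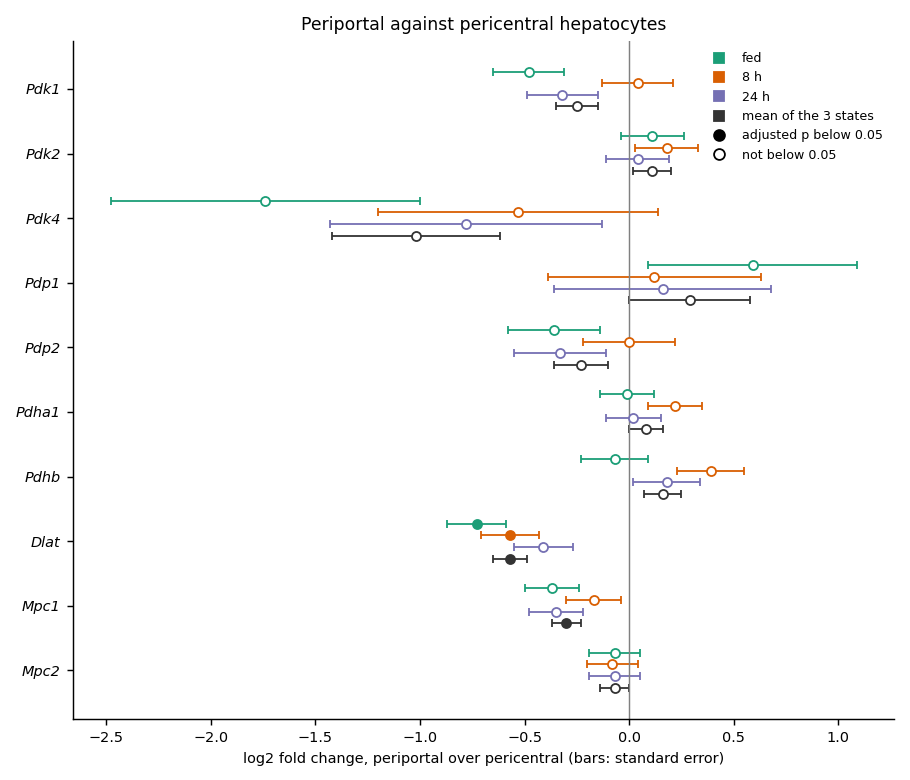
Log2 fold change of periportal over pericentral cells (x axis) for each gene (y axis) in the fed state, at 8 h, at 24 h and averaged over the 3 states. Bars are standard errors, and filled points have an adjusted p below 0.05. Dlat is filled in the fed state, at 8 h and on average, and Mpc1 on average at -0.30.

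Of the other genes of the complex, Pdhx, Dld and Pdpr could be tested, and 1 rose and 0 fell at 24 h in pericentral cells (21.8% of all genes called). None of the 3 was called at 24 h in periportal cells (19.6% of all genes), and over both zones 1 rose (Pdpr) and 1 fell (Pdhx, by 0.25, adjusted p = 0.0256; 34.5% of all genes). Pdpr, which encodes the regulatory subunit of the phosphatase, rose in pericentral cells by 0.45 after 8 h (adjusted p = 0.0183) and, after 24 h, by 0.70 (adjusted p = 0.000587) and in periportal cells by 0.38 at 8 h (adjusted p = 0.0429). Dld, the E3 subunit shared with sister complexes, was higher in periportal cells by 0.22 on average (adjusted p = 0.0182), opposite to Dlat. Pdk3 was too low to be tested. Among 4 genes of lipoylation, the attachment of the lipoyl group on which DLAT works, Lipt1 fell in both zones at both times, by 0.74 and 0.59 in pericentral and 0.52 and 0.60 in periportal cells (adjusted p 0.00464 to 0.0351). Mcat fell at 8 h by 0.33 and 0.42 (adjusted p = 0.0372 and 0.0103), and was lower in periportal cells on average by 0.28 (log2 -0.28, adjusted p = 0.0019).

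The sister dehydrogenases of 2-oxoglutarate, 2-oxoadipate and branched-chain 2-oxoacids form related complexes. Of the 8 genes listed, 4 rose and 0 fell at 24 h in pericentral cells, and 2 rose and 0 fell in periportal cells, where 21.8% and 19.6% of all genes were called. The periportal count is near that share. The median log2 differences of the list were 0.49 and 0.21, against 0.009 and -0.002 over all genes. Ppm1k, the phosphatase of the branched-chain complex, rose by 1.84 at 8 h and 1.76 at 24 h in pericentral and by 1.35 and 1.79 in periportal cells (adjusted p 0.0015 to 0.012). Bckdha, the counterpart of Pdha1 in that complex, rose by 0.41 and 0.32 at 24 h (adjusted p = 0.00402 and 0.0188). Ogdh and Dhtkd1, which encode the E1 enzymes of the other complexes, rose in pericentral cells by 0.57 and 0.90 (adjusted p = 0.000381 and 0.000969). Pdhb and Ppm1k thus moved in opposite directions in the same libraries.

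Of 13 genes of other pyruvate and lactate routes, 0 rose and 2 fell at 24 h in each zone, a share below the 21.8% (pericentral) and 19.6% (periportal) of all genes called. Pklr, the liver pyruvate kinase that makes pyruvate, fell by 3.33 in pericentral and 2.58 in periportal cells (adjusted p = 1.6e-05 and 0.000115). Me1, malic enzyme, fell by 2.50 and 1.66 (adjusted p = 0.00016 and 0.00317). Slc16a7, a monocarboxylate transporter, fell in pericentral cells at 8 h by 0.67 (adjusted p = 0.0109) and was lower in periportal cells by 0.64 when fed and 1.03 at 24 h (log2 -0.64 and -1.03, adjusted p = 0.0221 and 0.00149). Pcx, pyruvate carboxylase, which turns pyruvate into oxaloacetate, was higher in periportal cells by 1.18 when fed and 1.43 at 8 h (adjusted p = 0.0482 and 0.0203), against the lower Dlat of the same cells. Ldhd, D-lactate dehydrogenase, was lower there by 0.49 on average (log2 -0.49, adjusted p = 0.00478).

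Several factors known to act on Pdk4 rose as well. Of 9 listed, 6 rose and 0 fell at 24 h in pericentral cells, and 5 rose and 1 fell in periportal cells, against 21.8% and 19.6% of all genes called. Foxo1 rose by 1.27 and 1.37 (adjusted p = 8.57e-05 and 5.68e-05), Ppargc1a by 1.68 in each zone (adjusted p = 0.00016 and 0.000153), Ppara by 0.96 and 0.84 (adjusted p = 0.000245 and 0.000897), Cebpb by 1.21 and 0.89 (adjusted p = 0.00156 and 0.0121) and Foxo3 by 0.87 and 0.65 (adjusted p = 0.00126 and 0.0103). Foxo1 had already risen at 8 h, by 0.60 and 0.88 (adjusted p = 0.0273 and 0.00267). Nr3c1, the glucocorticoid receptor gene, fell in periportal cells at 24 h by 0.55 (adjusted p = 0.00381). Esrrg was lower in periportal cells in all 3 states (log2 -2.49, -2.10 and -2.74, adjusted p 0.000207 to 0.00127). Of the 9 factors, 2 were called higher and 1 lower in periportal cells when fed (8.01% of all genes called). At 8 h and at 24 h, 1 was higher and 1 lower (7.14% and 4.17%). A link of these to Pdk4, whose own zone differences were not called by edgeR with all 18 libraries, was not tested.

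Of 10 targets of PPARA, 7 rose and 0 fell at 24 h in each zone, with median log2 differences of 1.08 in pericentral and 0.97 in periportal cells. Of all genes, 21.8% and 19.6% were called in these comparisons. Angptl4, an inhibitor of lipoprotein lipase, rose by 3.00 and 4.43 (adjusted p = 6.18e-06 and 5.12e-07), Acot1, an acyl-CoA thioesterase, by 4.09 in each zone (adjusted p = 0.00154 and 0.00228), and Cpt1a, the gate of fatty acid oxidation, by 1.41 and 1.20 (adjusted p = 1e-05 and 4.36e-05). Cpt1a and Angptl4 were already called at 8 h in both zones, by 0.51 and 0.56 and by 2.74 and 4.27 (adjusted p 6.47e-07 to 0.0286).

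The genes whose pattern was most like that of a member were sought among 6597 genes with a mean of at least 10 CPM, by Pearson correlation of log2 levels over the 18 libraries. For Pdhb these were Thrsp (r = 0.975) and Acly (0.948), both lipogenic genes that feeding with sugar raises, and Vkorc1l1 (0.943). Thrsp was at 1780, 1720 and 1880 CPM in fed pericentral libraries and at 82.2, 59.4 and 81.5 CPM at 24 h, and in fed periportal libraries at 1890, 2100 and 579 CPM. Fed periportal library 3 was the lowest fed library of that zone for Thrsp, for Acly (785 against 3460 and 3290 CPM) and for Pdhb (177 CPM), and pericentral 8 h library 1 was the lowest of its group for all 3 genes. Thrsp and Acly were picked for their likeness to Pdhb over these same libraries, so this is no separate observation. For Pdk4 the closest were Grpel2 (0.906), Abcb4 (0.905), Ubb (0.886), Nceh1 (0.878) and Nfe2l1 (0.878). Abcb4, the phospholipid exporter of bile, was at 133 ± 17.4 CPM in fed periportal and 295 ± 36.3 CPM in 24 h pericentral libraries (SD, n = 3), the groups where Pdk4 was lowest and highest. For Dlat they were Ccdc157 (0.91), Tgfa (0.907) and Nrp2 (0.896). Nrp2, a co-receptor, was at 13.8 to 28.6 CPM in the pericentral group means and 3.24 to 5.43 CPM in the periportal ones. The libraries share groups and scaling, so these values are descriptions without a test.

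**Figure D5:**
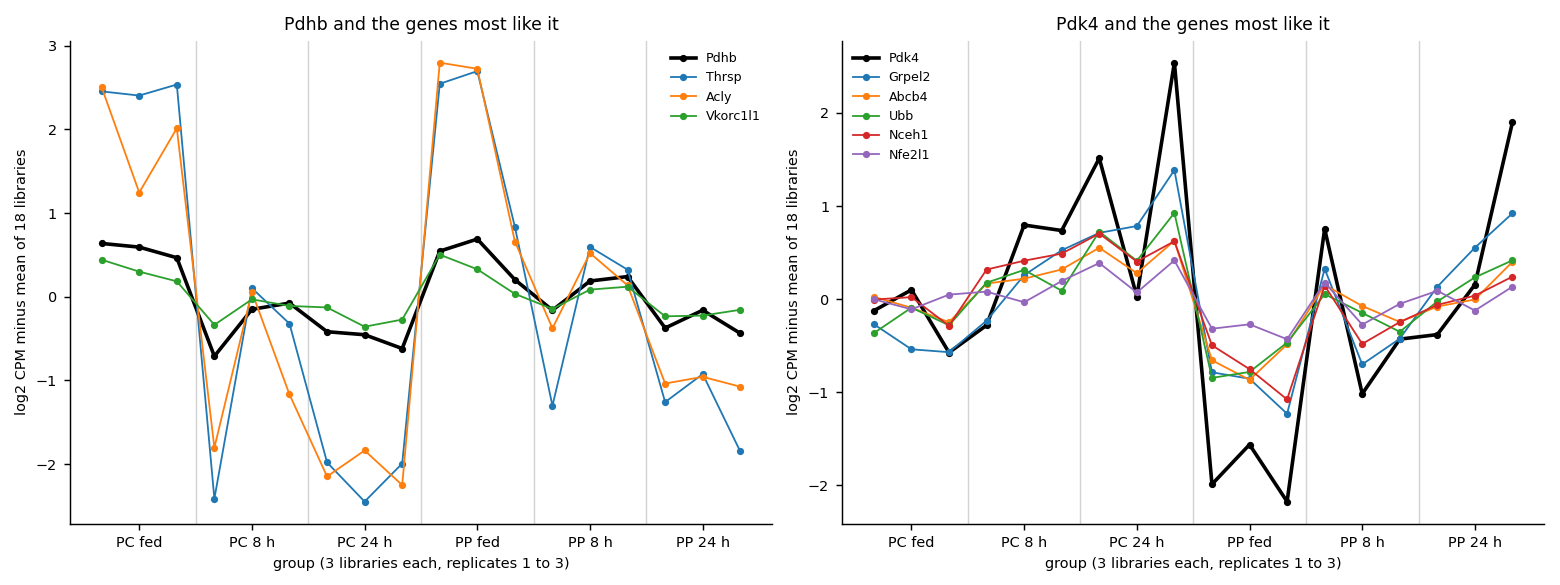
Log2 CPM minus the gene's mean over 18 libraries (y axis) for Pdhb (left) and Pdk4 (right), in black, with the genes most like each in colour. Libraries are ordered by group along the x axis, with 3 per group, and lines link points of 1 gene and imply no order among replicates. Thrsp and Acly follow Pdhb (r = 0.975 and 0.948) with larger steps, and Pdk4 takes larger steps than Grpel2 (r = 0.906) and the others.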

How the data were processed

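RNA-seq was made from 18 libraries of digitonin-isolated mouse hepatocytes in 6 groups of 3. Estimated counts for each gene, in 1 table, are what the authors deposited. The submitters' processing notes name kallisto 0.46.0 and mm10, without their roles. Between 67.5% and 70.5% of the values were whole. The values were rounded before testing, and 0 sample columns were left unused. Total counts of 18400000 to 26400000 per library set the precision, with 3 libraries per group.

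Testing used edgeR 4.0.16 (R 4.3.3): filterByExpr, TMM normalisation, 1 robust quasi-likelihood fit over all 18 libraries with 1 coefficient per group, Benjamini-Hochberg adjustment over 12477 genes and a threshold of 0.05. Besides 13 planned comparisons, 2 averages of fasting over the zones were added after seeing the data. Standard errors were derived from the log2 fold change and its F statistic. The script was tested on simulated data. Of the identifiers, 27566 matched a symbol. Correlations used log2 CPM with a prior count of 2. Transcripts came from GENCODE (GRCm38) and promoters from RefSeq.

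The members and lists were chosen with earlier results of these data known. Genes outside the members were named if called against the fed state or between zones, and the genes most like a member were named for Pdk4 (5) and for members called in at least 3 planned comparisons (3 each). Alternatives were DESeq2 size factors and test, limma-voom, other filters and scaling, fewer groups, a replicate block and each library left out. No pair of replicates agreed within sampling noise.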

Additional observations from a re-analysis of the deposited data

How the results depend on the processing

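Of 15 called pairs of a gene and a planned comparison, 6 were kept in every alternative that could be run (Dlat between zones when fed and on average, Mpc1 between zones on average, and Pdhb in pericentral cells at 8 h and at 24 h and in periportal cells at 24 h). A change of sign was counted where a value was called or exceeded its standard error. The only reversal was Pdk4 in periportal cells from 8 h to 24 h, 0.94, which was -0.05 without periportal 24 h library 3 and ranged from -0.05 to 1.61 over the left-out libraries. Pdp1 was not in the fit restricted to a mean of at least 1 CPM, and no fit with fewer groups exists for the zone average. With only the compared groups, the members called were 2 for zones when fed, 0 for zones at 8 h, 0 for pericentral 24 h against 8 h and 2 for periportal 24 h against fed. Without a filter they were 0 for pericentral 24 h against 8 h, 0 for periportal 8 h and 2 for periportal 24 h against fed. DESeq2 called 2 for periportal 8 h and limma-voom 1 for periportal 24 h. With 1 library left out, the count ranged from 1 to 2 (zones fed), 0 to 1 (zones at 8 h), 2 to 3 (zone average), 1 to 5 (pericentral 24 h), 0 to 1 (pericentral 24 h against 8 h), 0 to 1 (periportal 8 h), 1 to 5 (periportal 24 h), 0 to 1 (periportal 24 h against 8 h) and, for the added 8 h and 24 h averages, 1 to 4 and 5 to 8. The cause was not tested. Replicate numbers were not shown to pair the zones, since the correlations of same-numbered libraries ran from -0.065 to 0.272. With the replicate block the members called were 2 for zones when fed, 1 for zones at 24 h, 2 for pericentral 24 h against 8 h and 1 for periportal 24 h against 8 h. The genes added were Mpc1 for zones when fed (-0.36, adjusted p = 0.0237) and at 24 h (-0.35, 0.0453), and Mpc2 for 24 h against 8 h in pericentral (0.34, 0.0206) and periportal cells (0.32, 0.0305). Depth limits Pdp1 most, at 7 or more counts per library.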
